A study of Mus musculus with 87 samples.

Results

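The genes described here are 7 members of the PARP family, Parp3, Parp8, Parp9, Parp10, Parp11, Parp12 and Parp14, and Dtx3l, the ubiquitin ligase gene that works with Parp9. They were found by gene symbol, and all 8 were present among the 48526 genes of the table of sorted wells and the 48531 genes of the single-nucleus table. The study injected interferon gamma (IFN-γ) or saline into the ventral midbrain of mice and profiled nuclei of the injected tissue. All groups were wild-type C57BL/6J mice, adult males and females aged 6 to 12 months, given 400 nL of saline or of a solution with 40 ng of IFN-γ. Nuclei sorted by the neuronal protein NeuN were collected into plate wells at 6, 24, 48 and 72 h, which gave 84 wells in 16 groups, 42 NeuN+ and 42 NeuN− (NeuN-negative) wells. Each fraction had 6 IFN-γ wells at each of the 4 times and 4, 6, 4 and 4 saline wells at 6, 24, 48 and 72 h. Single-nucleus RNA sequencing (snRNA-seq) was done at 48 h on 1 saline mouse and 2 IFN-γ mice, on nuclei enriched for NeuN+ by sorting.

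PARP enzymes use NAD+ to attach ADP-ribose to proteins and nucleic acids, and most of the family, Parp10, Parp11, Parp12 and Parp14 among them, attach single ADP-ribose units rather than chains. Several PARP genes are transcribed in response to interferons and act in the control of viruses, in which macrodomains that bind ADP-ribose take part on both sides. Dtx3l is an E3 ubiquitin ligase of the Deltex family that forms a stable complex with Parp9, and the pair is known for roles in interferon signalling and in the response to DNA damage.

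Values from wells are unique molecular identifiers (UMIs), written here as CPM, counts per 1000000 counts of the well. NeuN− wells held 20962 to 301445 UMIs (median 110247.5) and NeuN+ wells 277113 to 1684374 (median 1064222), so that 1 count was 9.07 CPM in the median NeuN− well and 0.94 CPM in the median NeuN+ well. The shallowest well was replicate 1 of the NeuN− IFN-γ wells at 6 h. The sample labels call all wells NeuN+, and the fraction of each well was taken from a supplementary file of the study. The marker genes matched that file: the summed level of 4 neuronal genes was 175 to 1670 CPM (median 629) in NeuN− wells and 3750 to 7880 CPM (median 4820) in NeuN+ wells. The 5 oligodendrocyte genes (Mal, Mag, Mog, Mobp and Mbp) summed to 1270 to 4950 CPM (median 3990) in NeuN− wells and to 97.1 to 361 CPM (median 184) in NeuN+ wells, with Mbp the most abundant and none at 0. Each treatment had 2 to 3 mice at a time, so the 4 to 6 wells of a group share mice, and which wells came from the same mouse is not given. The p-values below treat wells as separate, measure the spread between wells and not between mice, and may be too small. In sorted bulk nuclei, fewer cells of a type and less RNA per cell cannot be told apart.

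The sex of the mice was not equal over the groups. NeuN+ IFN-γ wells at 6 h held 4.30 to 9.99 CPM over 4 Y-linked genes and 938 to 1270 CPM of Xist, whereas saline wells at 6 h held 151 to 224 CPM and 984 to 1150 CPM. IFN-γ wells at 48 h were high in Xist too, those at 24 and 72 h were high in the Y-linked genes, and the saline wells at 24 h were mixed. At 6 h the ratio of the 2 measures did not overlap between the treatments, so sex and treatment cannot be told apart there. The 3 single-nucleus libraries were all high in the Y-linked genes (356 to 382 CPM).

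Parp14, Dtx3l and Parp9 lie together on chromosome 16 (build GRCm38). Parp14 (ENSMUSG00000034422.14) spans chr16:35832874-35871544 on the minus strand, Dtx3l (ENSMUSG00000049502.16) spans chr16:35926511-35939151 on the minus strand, and Parp9 (ENSMUSG00000022906.15) spans chr16:35938470-35972605 on the plus strand. Dtx3l and Parp9 start from opposite strands and share 682 bases, 54966 bases separate Parp14 from Dtx3l with 0 protein-coding genes between them, and the 3 genes fit in 139732 bases. The other 5 genes lie apart: Parp12 (ENSMUSG00000038507.6) at chr6:39086410-39118349, Parp11 (ENSMUSG00000037997.12) at chr6:127446840-127494261, Parp3 (ENSMUSG00000023249.14) at chr9:106470322-106476949, Parp10 (ENSMUSG00000063268.12) at chr15:76231174-76243441 and Parp8 (ENSMUSG00000021725.8) at chr13:116854820-117025537.

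**Figure D1:**
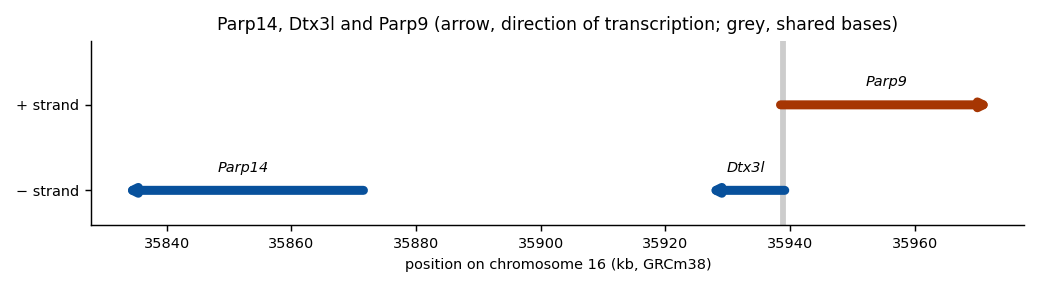
Positions of Parp14, Dtx3l and Parp9 on mouse chromosome 16 (GRCm38), with the position along the chromosome on the x axis and arrows for the direction of transcription. Dtx3l and Parp9 share 682 bases at their starts.

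In NeuN− wells, IFN-γ was compared with saline at each time to ask how strongly and how long the glia-rich fraction expressed these genes. At 6 and 24 h the 3 genes of the chromosome 16 group, Parp12, Parp11, Parp10 and Parp3 all stood above saline in most or all wells, and at 48 and 72 h several were still above it at lower levels. Parp14, which carries macrodomains beside its catalytic domain, measured 19.1, 20, 21.8 and 42.8 CPM in the 4 saline wells at 6 h and 382 to 543 CPM (median 462) in the 6 IFN-γ wells. At 24 h it measured 0 to 44.5 CPM (median 21.8) in saline and 241 to 488 CPM (median 338) in IFN-γ wells. Every IFN-γ well was above every saline well at both times, and Parp14 rose by 4.14 ± 0.25 (log2 fold change ± SE, edgeR adjusted p = 3.33e-16, 6 of 6 wells) at 6 h and by 3.96 ± 0.32 (adjusted p = 4.41e-11, 6 of 6 wells) at 24 h. At 48 h Parp14 was at 0, 9.83, 10.4 and 12.5 CPM in saline and at 28.9 to 90.1 CPM (median 71.4) with IFN-γ. At 72 h it was at 0, 7.19, 7.44 and 9.08 CPM in saline and at 36.6 to 74.4 CPM (median 55.2) with IFN-γ. The groups did not overlap at either time, although Parp14 was too low for the count filter of edgeR there.

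Parp9, the partner of Dtx3l, measured 0, 7.25, 9.55 and 17.1 CPM in saline and 136 to 270 CPM (median 158) in IFN-γ wells of the NeuN− fraction at 6 h. It rose by 4.13 ± 0.46 (adjusted p = 3.28e-09), with all 6 IFN-γ wells above saline. At 24 h the saline wells held 0 to 20.6 CPM (median 5.51) and the IFN-γ wells 73.6 to 156 CPM (median 147), again without overlap. Dtx3l measured 0, 7.25, 9.55 and 10.0 CPM in saline at 6 h, 3 counts in all, and 43.6 to 143 CPM (median 80.2) with IFN-γ. At 24 h Dtx3l had 1 count in 6 saline wells and 20.1 to 132 CPM (median 52.9) in IFN-γ wells. The groups did not overlap at either time, and the ratio of pooled CPM of Dtx3l was 11.7 (95% counting interval 3.82 to 58.7) at 6 h and 30.9 (5.31 to 1240) at 24 h. At 48 and 72 h the IFN-γ wells of both genes overlapped with saline.

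Parp12, a zinc finger PARP that attaches single ADP-ribose units, measured 38.2, 40.0, 42.8 and 72.5 CPM in saline NeuN− wells at 6 h and 334 to 396 CPM (median 373) with IFN-γ. It rose by 2.82 ± 0.22 (adjusted p = 7.7e-13), with all 6 IFN-γ wells above saline. At 24 h Parp12 ran from 0 to 48.5 CPM (median 31.0) in saline and from 60.3 to 226 CPM (median 163) with IFN-γ. At 48 h it was at 0, 8.42, 20.7 and 25.0 CPM in saline against 33.8 to 105 CPM (median 73.1) with IFN-γ. At 72 h it was at 0, 9.08, 14.4 and 19.8 CPM in saline against 29.8 to 101 CPM (median 47.8) with IFN-γ. The IFN-γ wells of Parp12 and Parp14 were above all saline wells at each of the 4 times.

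Parp11 measured 0, 10.0, 14.5 and 47.7 CPM in saline NeuN− wells at 6 h and 47.7 to 164 CPM (median 123) with IFN-γ. The lowest IFN-γ well equalled the highest saline well, and Parp11 rose by 2.74 ± 0.45 (adjusted p = 6.09e-06, 5 of 6 wells above saline). At 24 h Parp11 ran from 0 to 58.6 CPM (median 17.6) in saline and from 157 to 207 CPM (median 184) with IFN-γ, and rose by 3.09 ± 0.35 (adjusted p = 2.39e-08, 6 of 6 wells). Its groups were still apart at 48 h, at 16.8, 20.7, 25.0 and 29.5 CPM in saline and 45.5 to 86.8 CPM (median 76.8) with IFN-γ. Parp10 had 0 counts in the 4 saline wells at 6 h and 9.28 to 52.3 CPM (median 38.4) with IFN-γ, a pooled level at least 5.03-fold higher than the floor of 3 counts over the saline group. At 24 h Parp10 was at 0 in 5 of 6 saline wells and at 26.0 to 46.0 CPM (median 29.6) with IFN-γ, a ratio of 8.14 (2.06 to 70.4) over 2 saline counts. At both times the IFN-γ wells of Parp10 were above all saline wells.

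Parp3, known for its part in the repair of DNA breaks, measured 0, 7.25, 9.55 and 34.3 CPM in saline NeuN− wells at 6 h and 95.4 to 203 CPM (median 142) with IFN-γ. It rose by 3.40 ± 0.43 (adjusted p = 6.92e-08, 6 of 6 wells above saline). At 24 h Parp3 ran from 0 to 33.1 CPM (median 21.8) in saline and from 100 to 204 CPM (median 142) with IFN-γ, and at 48 h it was at 0, 0, 0 and 25.3 CPM in saline and at 28.9 to 47.8 CPM (median 43.5) with IFN-γ. The groups did not overlap at either time. Parp8 differed from the other 7 genes in that its saline level was high. It measured 60, 137, 174 and 200 CPM in saline NeuN− wells at 6 h and 183 to 429 CPM (median 327) with IFN-γ, and 5 of 6 IFN-γ wells were above saline. Parp8 rose by 1.03 ± 0.23 (adjusted p = 0.00046) at 6 h, a value near the limit of 1 that was no longer called without any 1 of 5 wells, replicate 2 or 3 of saline or replicate 1, 3 or 6 of IFN-γ (0.80 to 1.20 over all 10 such fits), or with the saline wells of all times (0.79). At 24 h its log2 fold change was 0.17 (adjusted p = 0.517), at 48 h −0.05 (0.953) and at 72 h −0.10 (0.858), and the wells overlapped.

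At 6 h, 6 of the 8 genes passed the count filter in NeuN− wells and all 6 were called higher, with a log2 fold change above 1 and an adjusted p below 0.01, against 7.86% of the 2660 genes tested. At 24 h 3 passed and 2 were called (Parp11 and Parp14), against 7.22% of 1883 genes. At 48 and 72 h Parp8 alone passed, and 0 members were called by edgeR or DESeq2, against 1.23% of 2352 genes and 0.754% of 2916 genes. Over all genes tested, an unadjusted p under 0.05 was reached by 417 genes at 48 h (292 by DESeq2) and by 445 genes at 72 h (282). A gene low in saline passed this filter through its IFN-γ wells, so these counts were also made with no filter, where 8, 7, 2 and 1 of 8 were called at 6, 24, 48 and 72 h, against 1.70%, 2.24%, 0.244% and 0.203% of all genes. The 2 genes called at 48 h with no filter were Parp14 (2.86, adjusted p = 0.000311, 6 of 6 wells above saline) and Parp12 (2.22, adjusted p = 0.00258, 6 of 6 wells), and at 72 h it was Parp14 (3.17, adjusted p = 0.000238, 6 of 6 wells). The median log2 fold change of the 8 genes with no filter was 3.44 at 6 h (3.16 with Parp10 at its lower bound), 3.35 at 24 h, 2.00 at 48 h and 1.60 at 72 h (1.56 with Parp10 at its bound), where all genes had medians of −0.02, 0.17, 0.04 and 0.11. All IFN-γ wells were above all saline wells for 6, 7, 4 and 2 of 8 genes, against 2.19%, 2.19%, 1.04% and 0.851% of genes.

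Cell type markers moved with these values. The 5 oligodendrocyte genes summed to 3400 to 4260 CPM (median 4090) in saline NeuN− wells at 6 h and to 2100 to 2870 CPM (median 2830) with IFN-γ, and 3 of 5 were called lower. At 24 h they summed to 3720 to 4880 CPM (median 4040) in saline and 1270 to 1840 CPM (median 1520) with IFN-γ, and 5 of 5 were called lower, Mbp with a log2 fold change of −1.78. The 5 astrocyte genes (Gja1, Fgfr3, Aqp4, Slc1a3 and Slc1a2), with Slc1a2 most abundant, summed at 24 h to 332 to 960 CPM (median 614) in saline and 1250 to 1650 CPM (median 1480) with IFN-γ, and Slc1a2 was called higher. Slc1a2 was also higher at 48 h. The 6 microglial genes (C1qb, Siglech, Csf1r, Cx3cr1, P2ry12 and Tmem119) summed at 6 h to 220 to 320 CPM (median 273) in saline and 0 to 125 CPM (median 94.0) with IFN-γ, where Tmem119 was at 0, and all 6 were too low to test there. Their sums were also apart at 48 h, at 287 to 472 CPM (median 326) in saline and 158 to 262 CPM (median 184) with IFN-γ, with 1 gene tested, 0 called by edgeR or DESeq2 and 1 at an unadjusted p under 0.05. The astrocyte sums were apart at 48 h (337 to 556 CPM in saline, 820 to 1010 CPM with IFN-γ) and, in the opposite direction, at 72 h (862 to 937 CPM in saline, 653 to 858 CPM with IFN-γ). The 4 neuronal genes overlapped between treatments, the 4 endothelial, 4 mural and 5 T cell genes were too low to test, and of the 4 oligodendrocyte precursor genes 1 was tested (Vcan) and 0 called by edgeR or DESeq2, with an unadjusted p under 0.05 by edgeR in some comparison. The part of these shifts in the levels of the 8 genes was not tested.

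**Figure D2:**
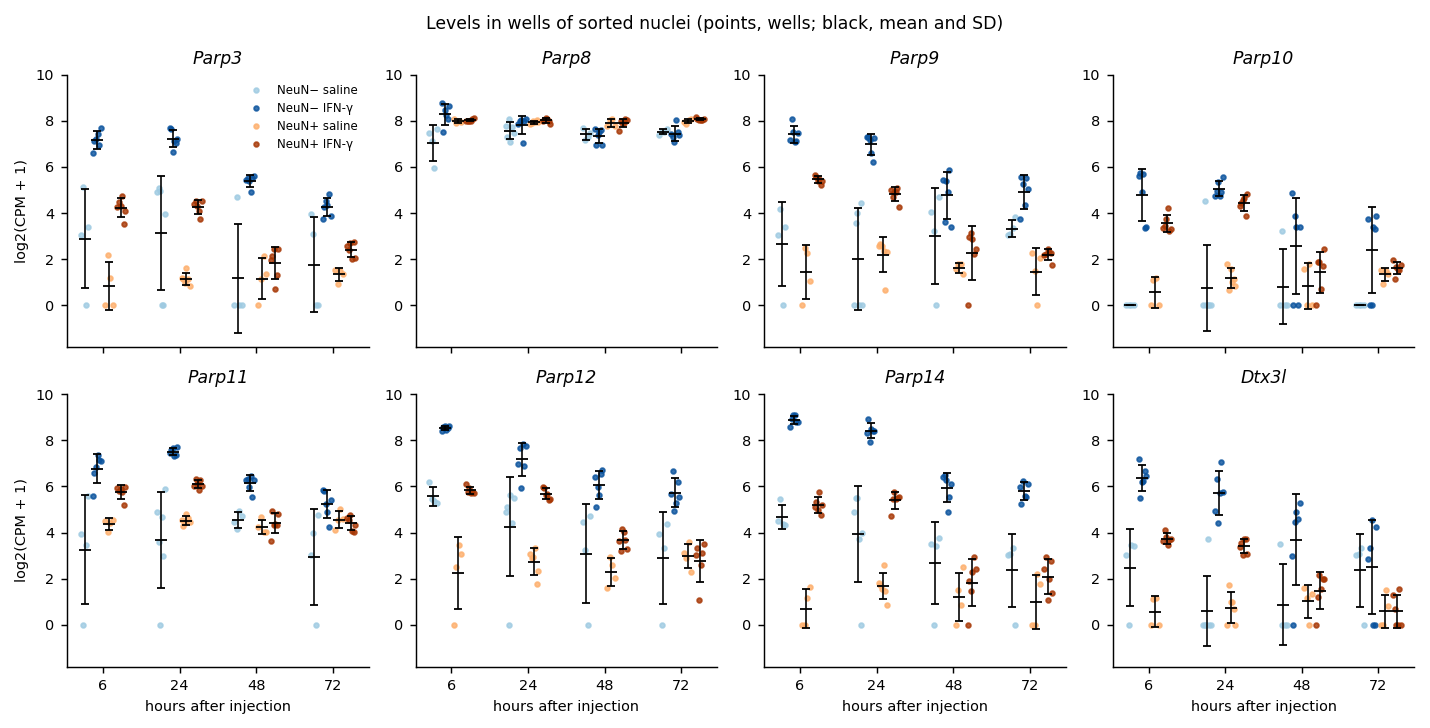
Levels as log2(CPM + 1) of each of the 8 genes in every NeuN− and NeuN+ well, by time after injection (h), with 1 point per well. Points are coloured by fraction and treatment, with the mean and SD of each group on the log2 scale. Parp14 reaches 382 to 543 CPM in NeuN− IFN-γ wells at 6 h, while Parp8 stays between 186 and 289 CPM in all NeuN+ wells.

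In NeuN+ wells the same comparison asked how the neuronal fraction responded. Here 7 of the 8 genes stood above saline at 6 and 24 h in every IFN-γ well, Parp8 overlapped with saline at each time, and at 48 and 72 h most levels overlapped with those of saline. Parp14 measured 0, 0, 1.26 and 2.15 CPM in saline at 6 h, 3 counts in all, and 26.1 to 53.6 CPM (median 35.1) with IFN-γ. The groups did not overlap, and Parp14 rose by 4.91 ± 0.46 (adjusted p = 1.54e-09, 6 of 6 wells), a fitted value that depends on the prior count. The ratio of its pooled CPM was 34.7 (95% counting interval 11.7 to 169). At 24 h Parp14 ran from 0.802 to 5.12 CPM (median 2.16) in saline and from 25.0 to 52.8 CPM (median 43.9) with IFN-γ, and rose by 4.20 ± 0.27 (adjusted p = 6.11e-12, 6 of 6 wells).

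Parp9 measured 0, 1.07, 3.79 and 4.69 CPM in saline NeuN+ wells at 6 h and 36.7 to 49.9 CPM (median 42.5) with IFN-γ, without overlap. It rose by 3.85 ± 0.32 (adjusted p = 1.11e-10) at 6 h and by 2.89 ± 0.27 (adjusted p = 1.64e-08) at 24 h, when the IFN-γ wells held 18.4 to 33.2 CPM (median 29.1) and the saline wells 0.600 to 5.34 CPM (median 4.48). All 6 IFN-γ wells were above saline at both times. Dtx3l measured 0, 0, 1.17 and 1.26 CPM in saline at 6 h and 10.0 to 16.5 CPM (median 12.1) with IFN-γ. It rose by 3.91 ± 0.56 (adjusted p = 8.23e-06, 6 of 6 wells), and over its 2 saline counts the pooled ratio was 18.1 (4.88 to 152). At 24 h Dtx3l was at 0 to 2.37 CPM (median 0.786) in saline and 7.10 to 12.4 CPM (median 10.1) with IFN-γ, without overlap, and was below the count filter.

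Parp12 measured 0, 4.69, 7.52 and 10.1 CPM in saline NeuN+ wells at 6 h and 51.2 to 67.3 CPM (median 53.2) with IFN-γ. It rose by 3.01 ± 0.25 (adjusted p = 1.56e-10) at 6 h and by 3.17 ± 0.22 (adjusted p = 3.21e-11) at 24 h, when it ran from 2.40 to 9.21 CPM (median 6.67) in saline and from 41.5 to 62.5 CPM (median 49.1) with IFN-γ. All 6 IFN-γ wells were above saline at both times. Parp11 had a saline level of 15.2, 20.2, 21.7 and 22.6 CPM at 6 h and reached 35.5 to 61.8 CPM (median 56.5) with IFN-γ. It rose by 1.43 ± 0.19 (adjusted p = 2.48e-06, 6 of 6 wells) at 6 h and by 1.68 ± 0.13 (adjusted p = 4.24e-10, 6 of 6 wells) at 24 h, when the saline wells held 18.4 to 26.6 CPM (median 21.7) and the IFN-γ wells 57.3 to 79.3 CPM (median 65.8). Parp11 showed the smallest fitted fold change of the 6 genes called in NeuN+ wells at each of these times.

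Parp10 measured 0, 0, 1.17 and 1.26 CPM in saline NeuN+ wells at 6 h and 8.29 to 17.9 CPM (median 9.68) with IFN-γ, a pooled ratio of 15.5 (4.14 to 130) over 2 saline counts. At 24 h it ran from 0.594 to 2.51 CPM (median 1.11) in saline and from 13.5 to 27.7 CPM (median 21.9) with IFN-γ, and rose by 4.03 ± 0.32 (adjusted p = 4.6e-10, 6 of 6 wells). The groups of Parp10 did not overlap at either time. Parp3 measured 0, 0, 1.26 and 3.52 CPM in saline at 6 h and 10.7 to 25.7 CPM (median 18.3) with IFN-γ, and rose by 3.56 ± 0.50 (adjusted p = 6.47e-06, 6 of 6 wells). At 24 h Parp3 ran from 0.802 to 2.05 CPM (median 1.19) in saline and from 12.4 to 22.3 CPM (median 19.6) with IFN-γ, and rose by 3.85 ± 0.30 (adjusted p = 4.81e-10, 6 of 6 wells). Parp8 was at 238, 245, 250 and 271 CPM in saline at 6 h and at 252 to 279 CPM (median 256) with IFN-γ, a log2 fold change of 0.02 ± 0.07 (adjusted p = 0.901). At 24 h it was at 232 to 261 CPM (median 245) in saline and 232 to 276 CPM (median 257) with IFN-γ, and its wells overlapped at both times.

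At 48 h Parp12 was the 1 gene whose NeuN+ groups did not overlap, at 1.99, 3.08, 5.05 and 6.76 CPM in saline and 8.10 to 16.7 CPM (median 11.8) with IFN-γ. Its log2 fold change of 1.32 ± 0.35 was not called (adjusted p = 0.0785, 6 of 6 wells above saline). At 72 h it was Parp3, at 0.925, 1.59, 1.84 and 1.93 CPM in saline and 3.0 to 5.73 CPM (median 4.65) with IFN-γ. The other genes overlapped with saline at these times: Parp14 ran from 0 to 6.68 CPM (median 3.28) with IFN-γ at 48 h and from 1.10 to 6.75 CPM (median 3.65) at 72 h. Parp11, at 11.6 to 29.7 CPM (median 19.7) at 48 h and 15.3 to 26.5 CPM (median 20.9) at 72 h, had log2 fold changes of 0.23 (adjusted p = 0.742) and −0.15 (adjusted p = 0.763).

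In NeuN+ wells 7 of 8 genes passed the filter at 6 h and 6 were called higher, against 1.08% of 9033 genes. At 24 h 7 passed and 6 were called, against 1.47% of 9416 genes. At 48 h 3 passed and at 72 h 2 passed, and 0 were called by edgeR or DESeq2, against 0.150% of 10033 genes and 0.351% of 9405 genes. Over all genes an unadjusted p under 0.05 was reached by 1259 genes at 48 h (649 by DESeq2) and 1888 genes at 72 h (1334). With no filter 7, 7, 0 and 0 of 8 were called, against 0.571%, 0.950%, 0.142% and 0.182% of genes, and these added Parp10 at 6 h (3.72 ± 0.66, adjusted p = 2.36e-06) and Dtx3l at 24 h (3.30 ± 0.49, adjusted p = 2.6e-09). The medians of the 8 genes were 3.66, 3.23, 1.02 and 0.36, where all genes had medians of 0.05, −0.03, 0.02 and 0.03. All IFN-γ wells were above all saline wells for 7, 7, 1 and 1 of 8 genes, against 2.81%, 1.47%, 0.578% and 2.11% of genes. When NeuN+ wells were thinned to the depth of the median NeuN− well, 1 of the 8 genes passed the filter at 6 or 24 h and 0 were called.

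Oligodendrocyte markers in the NeuN+ wells summed at 6 h to 144 to 236 CPM (median 152) in saline and 97.1 to 126 CPM (median 107) with IFN-γ, and of 4 tested 0 were called by edgeR or DESeq2, with 3 at an unadjusted p under 0.05. They did not overlap at 72 h either, at 178 to 232 CPM (median 210) in saline and 283 to 361 CPM (median 342) with IFN-γ, where edgeR called 0 of 5, with 4 at an unadjusted p under 0.05, and DESeq2 called Mog higher. The astrocyte genes summed at 24 h to 89.0 to 185 CPM (median 150) in saline and 225 to 253 CPM (median 243) with IFN-γ, with Slc1a3 called higher. They were apart at 72 h too, at 125 to 173 CPM (median 144) in saline and 178 to 205 CPM (median 191) with IFN-γ, with 3 genes tested, 0 called by edgeR or DESeq2 and 3 at an unadjusted p under 0.05. Among neuron subtypes, Gad1 was lower at 24 h, Ddc, Slc6a3, Th and En1 of the dopaminergic list were higher at 72 h (DESeq2 called Ddc and Slc6a3 only), and Tph2 of the serotonergic list was higher at 6 and 72 h. Of the 4 general neuronal and 3 VGLUT2 genes 0 were called by edgeR or DESeq2 in any comparison with saline, while all 7 had an unadjusted p under 0.05 by edgeR in at least 1. The VGLUT2 sums were lower with IFN-γ without overlap at 6 h, at 1840 to 2050 CPM (median 1980) in saline and 1540 to 1680 CPM (median 1570) with IFN-γ, and at 72 h, at 2040 to 2180 CPM (median 2130) and 1420 to 1540 CPM (median 1490). Their medians were higher with IFN-γ at the other times. They were 1710 to 2230 CPM (median 1790) in saline and 1990 to 2140 CPM (median 2070) with IFN-γ at 24 h. At 48 h they were 1540 to 1790 CPM (median 1710) and 1790 to 2080 CPM (median 1910). The part of these markers in the result was not tested.

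The response in NeuN+ wells was then compared with the response in NeuN− wells, by the interaction of treatment and fraction in edgeR. Of 7 genes tested at 6 h, Parp8 alone was called, with a response lower in NeuN+ wells by a log2 difference of −1.06 ± 0.23 (adjusted p = 0.00107), against 1.59% of 5968 genes. The difference was −0.99 with DESeq2 (adjusted p = 0.000788) and with RLE size factors (adjusted p = 0.00258), just under the limit of 1, and −0.91 with thinned NeuN+ counts (adjusted p = 0.0532), so the call was lost in these 3 settings. It was also lost without any 1 of 4 wells, NeuN− saline replicate 2 or 3 or NeuN− IFN-γ replicate 3 or 6, and the difference ran from −1.17 to −0.74 over the wells left out. Of 7 genes tested at 24 h, Parp11 alone was called, with a difference of −1.57 ± 0.42 (adjusted p = 0.00763), against 2.25% of 7628 genes. It was −1.50 with DESeq2 (adjusted p = 0.0287) and with RLE size factors (adjusted p = 0.0128), −1.65 with no filter (adjusted p = 0.0127) and −1.09 with thinned counts (adjusted p = 0.38), and not called in these 4 settings. The call was also lost in 20 of 24 fits that each left out 1 well, where the difference ran from −2.07 to −1.26 and the largest adjusted p was 0.0661, and it was kept only without NeuN+ saline replicate 2, NeuN− saline replicate 6 or NeuN− IFN-γ replicate 4 or 5. At 48 and 72 h 5 genes were tested and 0 called by edgeR or DESeq2, against 0.0482% and 0.0934% of genes, with 741 and 872 genes at an unadjusted p under 0.05. All genes tested but Parp8 had a negative difference at both times, from −2.23 (Parp3, adjusted p = 0.42) to −1.06 (Parp12) at 48 h and from −2.14 (Parp12, adjusted p = 0.148) to −1.23 (Parp9) at 72 h. Parp11 had −1.49 (unadjusted p = 0.00342, adjusted p = 0.149) and −1.71 (unadjusted p = 0.00603, adjusted p = 0.159). No difference in fold change between the fractions was therefore called for Parp14, Parp9, Dtx3l, Parp12, Parp10 or Parp3 at the times when each was tested. Dtx3l was tested at 6 h alone, Parp10 at 24 h alone, Parp9 not at 48 h and Parp3 not at 72 h. With no filter all 8 genes were tested at each time, and Parp8 at 6 h was the 1 call.

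The level in IFN-γ wells, as distinct from the fold change, was lower in NeuN+ than in NeuN− wells for most of these genes. At 6 h Parp14 was lower by −3.65 ± 0.14 (log2 difference, adjusted p = 6.2e-31), at 26.1 to 53.6 CPM in NeuN+ and 382 to 543 CPM in NeuN− wells, without overlap. At 6 h the differences were −2.93 for Parp3, −2.62 for Parp12, −2.48 for Dtx3l, −1.90 for Parp9 and −1.10 for Parp11, all called, and −0.14 for Parp8, not called. With no filter Parp11 was no longer called there (−0.87). In all, 6 of 7 genes tested at 6 h, 5 of 7 at 24 h, 4 of 5 at 48 h and 3 of 5 at 72 h were called lower, against 18.2%, 15.4%, 17.4% and 16.7% of genes. Parp14 and Parp12 were among them at each time, with −3.73 and −2.81 at 72 h. Parp8 went the other way after 6 h, higher in NeuN+ wells by 0.2 at 24 h (edgeR adjusted p = 0.13), 0.55 at 48 h (0.000249) and 0.71 at 72 h (3.45e-07). These values were under the limit of 1 and not called. With NeuN+ counts thinned, an alternative chosen after seeing the data and run with edgeR alone, fewer genes passed the filter: 5 of 6 tested were called at 6 h, 3 of 4 at 24 h, and 0 of 1 at both 48 and 72 h, with 2288 and 2367 genes at an unadjusted p under 0.05. The shares of all genes given above belong to the fits without thinning, so these thinned counts have no share to be read against.

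In saline alone, with 18 wells per fraction, Parp8 was the 1 gene that passed the filter. It measured 60 to 267 CPM (median 175) in NeuN− wells and 215 to 271 CPM (median 246) in NeuN+ wells, means of 175 ± 43.5 and 247 ± 16.4 CPM (SD), and the groups overlapped. Its log2 difference of 0.38 ± 0.08 (adjusted p = 1.67e-05) was under the limit of 0.5 set for this comparison, so of the 8 genes 1 was tested and 0 called in edgeR, against 59.4% of 4585 genes in either direction, 3586 of them at an unadjusted p under 0.05. Parp8 was called with DESeq2 (0.53). With no filter edgeR tested all 8 and called Parp8 higher in NeuN+ wells (0.83) and Parp3 (−2.32), Parp9 (−1.33), Parp12 (−1.74), Parp14 (−2.63) and Dtx3l (−1.86) lower, where the median of all genes was 0.33. In that fit 7030 of 27444 genes were called in either direction. The other 7 genes were low in saline in both fractions: mean levels in NeuN− and NeuN+ wells were 11.4 and 1.37 CPM for Parp3, 9.24 and 2.83 CPM for Parp9, 25.9 and 5.83 CPM for Parp12, 16.9 and 1.74 CPM for Parp14, 19.0 and 21.0 CPM for Parp11, 4.05 and 0.822 CPM for Dtx3l, and 1.69 and 1.18 CPM for Parp10. At the depth of NeuN− wells many of these values rest on few counts, 9 for Dtx3l and 3 for Parp10 over all 18 wells.

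The change of the response with time was tested as a difference of fold changes, in which the wells of all times were fitted together and saline wells are those of each time. In NeuN+ wells all 8 genes passed the filter, and the response at 72 h was lower than at 24 h for 3 of 8, against 0.612% of 10953 genes. Parp10 fell by 3.66 ± 0.87 on the log2 scale (adjusted p = 0.00545), Parp12 fell by 3.12 ± 0.47 (adjusted p = 7.28e-06) and Parp11 fell by 1.83 ± 0.25 (adjusted p = 5.75e-07). At 24 h the IFN-γ wells of these 3 genes stood above every saline well, and at 72 h the groups overlapped. The call of Parp10 was lost without NeuN+ saline replicate 2 at 24 h or replicate 1, 3 or 4 at 72 h, and with no filter (adjusted p = 0.0185). Parp9 had a difference of −2.45 (adjusted p = 0.011), Parp14 of −2.69 (adjusted p = 0.122), Parp3 of −2.42 (adjusted p = 0.0712), Dtx3l of −2.98 (adjusted p = 0.262) and Parp8 of −0.07, not called. Parp9 was called with DESeq2 (adjusted p = 0.00625), and with edgeR without NeuN+ saline replicate 2 at 24 h, saline replicate 3 at 72 h or IFN-γ replicate 1 at 48 h.

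Between 24 and 6 h 0 of 8 genes were called as differing in NeuN+ wells by edgeR or DESeq2, against 0.603% of genes in either direction, with 1545 genes at an unadjusted p under 0.05. In NeuN− wells 0 of the 6 genes tested were called between 24 and 6 h by edgeR or DESeq2, against 6.15% of 3576 genes with 867 at an unadjusted p under 0.05, and 0 of 6 between 72 and 24 h, against 8.98% with 1072 genes. All 6 differences between 72 and 24 h were negative there. By edgeR they were −2.06 for Parp9 (unadjusted p = 0.0399, adjusted p = 0.143), −1.82 for Parp3 and −1.59 for Parp11 (unadjusted p = 0.0499, adjusted p = 0.167). Those of Parp14, Parp12 and Parp8 were −0.87, −0.32 and −0.31. Parp8 had a difference of −0.86 between 24 and 6 h (adjusted p = 0.0386). Dtx3l and Parp10 were below the count filter in both NeuN− comparisons of times.

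The order of the 16 group means was not the same for all genes. Parp14 was highest in the IFN-γ wells of NeuN− nuclei at 6 h (473 ± 62.9 CPM, mean ± SD), then at 24 h (347 ± 80.0), 48 h (65.2 ± 23.6) and 72 h (55.8 ± 14.8), and only the step from 24 to 48 h had no overlap. Below these came NeuN+ IFN-γ wells at 24 h (42.4 ± 9.28) and 6 h (36.7 ± 9.46), saline NeuN− wells (25.9 ± 11.3 at 6 h to 5.93 ± 4.04 at 72 h), and NeuN+ wells of the later times and saline (3.75 ± 2.26 to 0.853 ± 1.05). Parp12 followed the same order at the top, at 369 ± 23.2 CPM at 6 h, which did not overlap with 157 ± 65.9 CPM at 24 h, and then 70.7 ± 27.3 and 56.1 ± 26.1 CPM. All later neighbours of Parp12 overlapped.

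Parp3 was highest in the IFN-γ wells of NeuN− nuclei at 24 h (154 ± 40.4 CPM) and 6 h (146 ± 37.4), which overlapped, then at 48 h (41.8 ± 6.73) and 72 h (18.8 ± 5.45), both apart from the group above. Parp9 stood at 174 ± 50.8 CPM at 6 h and 129 ± 35.7 CPM at 24 h in NeuN− IFN-γ wells, and the next group, NeuN+ IFN-γ wells at 6 h (43.2 ± 4.49), did not overlap with them. Every other neighbouring pair in the orders of Parp3 and Parp9 overlapped. Dtx3l (87.0 ± 33.6 CPM), Parp10 (33.1 ± 20.1 CPM) and Parp8 (322 ± 90.1 CPM) were highest in NeuN− IFN-γ wells at 6 h and Parp11 (182 ± 21.0 CPM) in those at 24 h, and all neighbours in their orders overlapped. For Parp8 the next 8 groups were all NeuN+, from 268 ± 11.4 to 240 ± 29.0 CPM, and its lowest was saline NeuN− at 6 h (143 ± 61.1 CPM).

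The genes most similar to each member were taken by Pearson r of the mean log2(CPM + 1) over the 16 groups, among 14357 genes with at least 100 counts, as a description only. The groups share fraction, depth and treatment, so a high r is common. Parp14 was closest to Gm44935 (0.981), Parp12 (0.976) and Trim30a (0.976), and Parp12 to Gm44935 (0.980), Parp14 (0.976) and Nmi (0.968). Parp3 was closest to Zc3hav1 (0.973), Parp14 (0.973) and Gm44935 (0.969). Parp9 was closest to Herc6 (0.974), Trim21 (0.972) and Irf1 (0.967), and Dtx3l to Mlkl (0.971), Herc6 (0.968) and Mx2 (0.966). Parp10 was closest to Gm43302 (0.966), Ifi44 (0.960) and Parp11 (0.95), and Parp11 to Parp10 (0.95), Wars (0.933) and Ifi35 (0.927). Parp8 stood apart from the rest, closest to Slc25a22 (0.955), Tpm4 (0.925) and Crim1 (0.925).

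The single-nucleus libraries held 1016 saline nuclei and 2574 and 1109 IFN-γ nuclei, with medians of 14645.5, 9404.5 and 11767 UMIs per nucleus, and the libraries shared 0 cell barcodes. Nuclei were clustered and named by marker genes, and UMIs were summed per mouse in each class. The oligodendrocyte class had 191, 744 and 306 nuclei in the saline mouse and the 2 IFN-γ mice. With 1 saline mouse the spread between saline mice is unknown, and the fit takes it to be like that between the 2 IFN-γ mice.

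In oligodendrocyte nuclei at 48 h, 7 of the 8 genes were higher in both IFN-γ mice than in the saline mouse, and Parp8 was not. Parp14 had 0 UMIs in 694527 in the saline mouse and 41.8 and 57.5 CPM in the IFN-γ mice, at least 9.69- and 13.3-fold higher than the floor of 3 counts. It was called higher (adjusted p = 4.72e-13, 2 of 2 mice). Dtx3l also had 0 UMIs in saline and 14.4 and 18.7 CPM with IFN-γ, at least 3.34- and 4.33-fold higher, and was called (adjusted p = 0.000723, 2 of 2 mice). Parp9 measured 1.44 CPM in saline, from 1 UMI, and 46.3 and 54.7 CPM with IFN-γ, ratios of 32.1 (95% counting interval 5.66 to 1280) and 38.0 (6.63 to 1520). The 2 IFN-γ mice were close to each other and far above saline, and Parp9 was called (adjusted p = 1.58e-11). Parp12 measured 4.32 CPM in saline, from 3 UMIs, and 64.4 and 78.3 CPM with IFN-γ, ratios of 14.9 (5.02 to 73.0) and 18.1 (6.04 to 89.2). It rose by 4.07 ± 0.49 (adjusted p = 4.61e-14, 2 of 2 mice). Parp11 measured 7.20 CPM in saline and 81.1 and 76.2 CPM with IFN-γ, and rose by 3.51 ± 0.42 (adjusted p = 4.73e-14, 2 of 2 mice).

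Parp3 measured 2.88 CPM in saline oligodendrocyte nuclei, from 2 UMIs, and 27.0 and 39.5 CPM with IFN-γ, ratios of 9.39 (2.51 to 79.0) and 13.7 (3.63 to 116). It was not called (log2 fold change 3.51, adjusted p = 1.4e-05), because the call needs a log2 ratio above 3 in both mice, taken with a prior count of 0.5, and 1 of them had 2.92. The ratios 9.39 and 13.7 have no prior count and are both above the limit, 8-fold, so the prior count decided this. Parp10 had 0 UMIs in saline and 4.81 and 11.8 CPM with IFN-γ (adjusted p = 0.0917). Parp8 was at 145 CPM in saline and at 119 and 122 CPM with IFN-γ, a log2 fold change of −0.20 (adjusted p = 0.805). Of the 8 genes tested 5 were called by edgeR, against 0.578% of 12806 genes, and 2 by DESeq2 (Parp11, adjusted p = 0.00177, and Parp12, adjusted p = 0.00375). A gene low in saline passed the count filter of this class through its IFN-γ nuclei, so edgeR was also run on all genes with at least 1 UMI. There 5 of the 8 genes were called higher, against 75 of 20178 genes. The median fitted log2 fold change of the 8 was 4.58, or 3.48 with the 3 genes at 0 in saline set to their lower bound, where that of all genes tested was 0.034.

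The share of oligodendrocyte nuclei with a UMI was counted after thinning each nucleus to 2000 UMIs. For Parp14 it was 0 of 182 nuclei in saline, and 7.78% and 10.0% in the IFN-γ mice. In the VGLUT2 class, thinned to the same depth, it was 1.24% in saline and 0.398% and 1.08% with IFN-γ. For Parp11 it was 1.65% of oligodendrocyte nuclei in saline and 13.2% and 13.7% with IFN-γ, against 2.06%, 3.18% and 2.53% in VGLUT2 nuclei. Median UMIs before thinning were 3383, 3445.5 and 4201.5 in oligodendrocyte and 16722, 14500 and 17001.5 in VGLUT2 nuclei. The shares in both classes may include free RNA, which was not measured separately, so they count nuclei with a UMI and not nuclei that express the gene.

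Clustering split the oligodendrocytes into 3 clusters, and the IFN-γ mice were spread unevenly over them. The cluster led by Iigp1 and Neat1 held 2 saline nuclei and 438 and 171 IFN-γ nuclei, the second held 77, 276 and 129, and the third held 112, 30 and 6. In IFN-γ nuclei of the first cluster Parp11 was at 124 and 123 CPM, Parp12 at 78.3 and 112 CPM, Parp14 at 66.4 and 98.7 CPM and Parp9 at 65.7 and 81.3 CPM. In the second Parp12 was at 2.99 CPM in saline and 49.5 and 42.9 CPM with IFN-γ. Parp9 there was at 0 CPM in saline and 20.2 and 26.6 CPM with IFN-γ, Parp14 at 0 CPM and 11 and 13.3 CPM, and Parp11 at 12 CPM and 29.3 and 26.6 CPM. The third held most of the saline nuclei but few IFN-γ nuclei, and its values rest on few UMIs: in saline and the 2 IFN-γ mice Parp12 had 2, 2 and 0 UMIs, Parp9 1, 4 and 0, Parp14 0, 1 and 0, and Parp3 and Parp11 each 1, 0 and 0. The 8 genes were left out of the genes used for clustering, and the levels of the clusters are a description with no test.

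**Figure D3:**
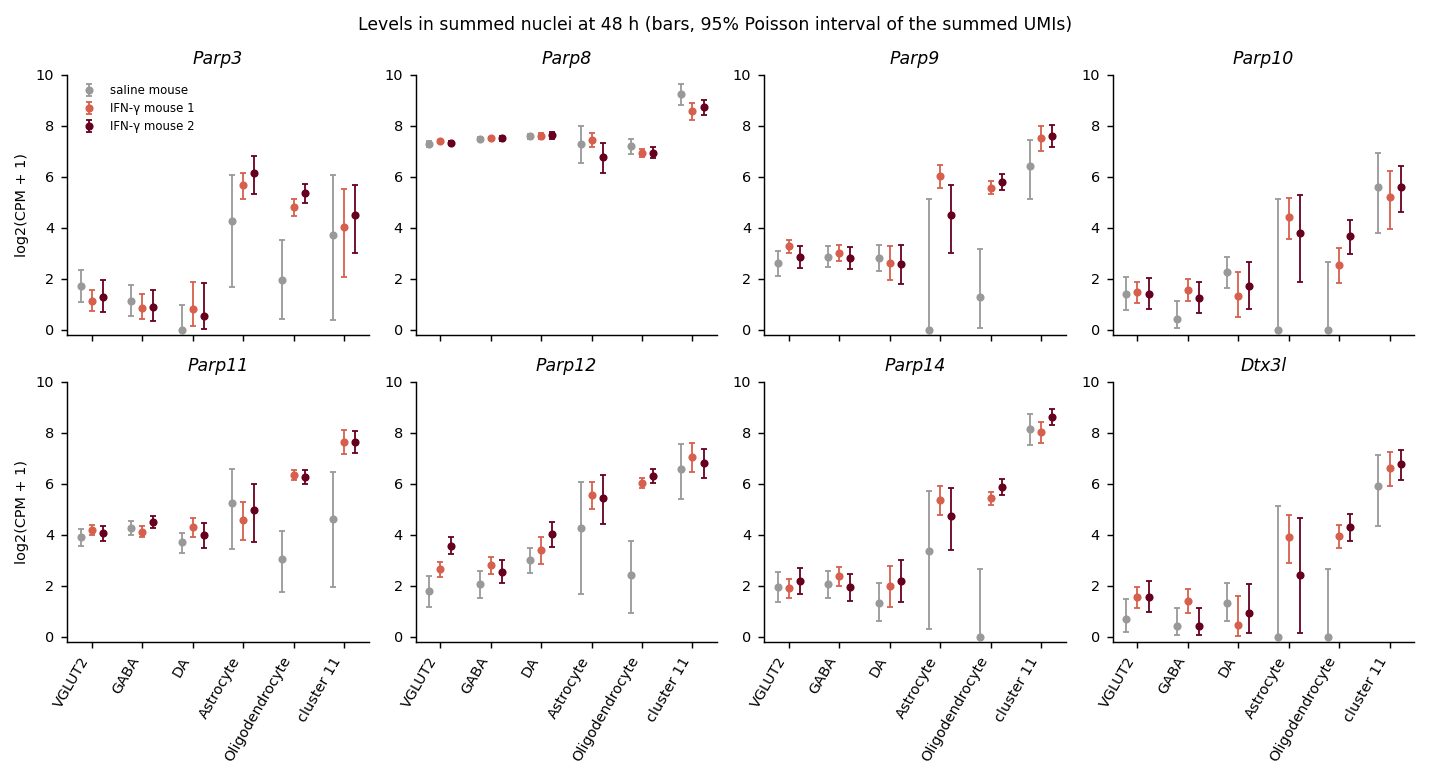
CPM of each of the 8 genes in the nuclei of each class at 48 h, with 1 point per mouse (1 saline, 2 IFN-γ). In oligodendrocytes Parp14 is at 0 in saline and at 41.8 and 57.5 CPM with IFN-γ.

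No other class had a member called. In astrocyte nuclei (21, 135 and 37), where 1 count in saline was a large step, Parp9 was at 0 CPM in saline and 63.4 and 21.5 CPM with IFN-γ, and Parp3 was at 18.3 CPM in saline and 49.5 and 68.8 CPM with IFN-γ. Parp14 (9.16, 40.2 and 25.8 CPM), Parp12 (18.3, 46.4 and 43.0 CPM), Parp10 (0, 20.1 and 12.9 CPM) and Dtx3l (0, 13.9 and 4.30 CPM) also had a higher CPM in both IFN-γ mice. For Parp9, Parp10 and Dtx3l this rests on 0 UMIs in saline. Against the floor of 3 counts, Parp9 was at least 2.31-fold higher in IFN-γ mouse 1. The other bounds of these genes were 0.156 to 0.782, so a higher level was not established there. Parp11 was lower in both IFN-γ mice, at 36.65 CPM in saline, from 4 UMIs, and 23.2 and 30.1 CPM. All 8 genes were tested there and 0 called by edgeR or DESeq2, against 0.0844% of genes, with 699 genes at an unadjusted p under 0.05. In the 3 neuronal classes 0 of 8 were called for VGLUT2 nuclei (0.0264% of genes called, 1175 at an unadjusted p under 0.05), 0 of 8 for GABA nuclei (0.00535%, 403) and 0 of the 6 tested for dopaminergic nuclei (0.0377%, 437), by edgeR and by DESeq2. Parp12 was at 2.43 CPM in saline VGLUT2 nuclei and at 5.22 and 10.9 CPM with IFN-γ. In dopaminergic nuclei it was at 7.01 CPM in saline and 9.51 and 15.3 CPM with IFN-γ, and in GABA nuclei at 3.14, 5.97 and 4.86 CPM. Both IFN-γ mice were above the saline mouse in each of the 3 classes, by less than the limit. The ratios of Parp10 in GABA nuclei were 5.82 and 4.06 (0.331 CPM in saline, from 2 UMIs, and 1.92 and 1.34 CPM with IFN-γ, unadjusted p = 0.0356), and those of Dtx3l in VGLUT2 nuclei 3.14 and 3.24 (0.607 CPM, from 3 UMIs, and 1.91 and 1.97 CPM). Other genes were lower in both IFN-γ mice: Parp3 in VGLUT2 (2.23 CPM in saline, 1.16 and 1.43 CPM with IFN-γ) and GABA nuclei (1.16, 0.81 and 0.838 CPM), and in dopaminergic nuclei Parp10 (3.75, 1.46 and 2.24 CPM), Parp9 (6.01, 5.12 and 4.94 CPM) and Dtx3l (1.5, 0.366 and 0.898 CPM, from 6, 1 and 2 UMIs). Dtx3l was not tested in dopaminergic nuclei, and the others were not called. Parp14 lay between 1.5 and 4.15 CPM in these classes in all 3 mice, and Parp8 between 154 and 194 CPM. In dopaminergic nuclei Parp14 was higher in both IFN-γ mice (1.5 CPM in saline, 2.92 and 3.59 CPM with IFN-γ) and was not called. In VGLUT2 and GABA nuclei 1 IFN-γ mouse was above the saline mouse for Parp14 and the other below it.

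A small cluster led by Inpp5d, Ly86 and Cd74, held 31, 49 and 54 nuclei. The microglial list scored highest in it, by a lead of 5.13 over the next list where 0.75 was needed. In it 7 genes of the list used for naming were detected. Its median of 3416 UMIs was low for its libraries, and none of its 10 leading genes was on the list. For these reasons the naming rule left it unnamed. The study named microglia among its cell types and reported Cd74, a leading gene here, as raised by IFN-γ in microglia only. By its markers the cluster was most like microglia, so the levels below are probably those of microglia. In this cluster Parp14, Parp12, Parp8, Parp9, Dtx3l and Parp10 had a higher CPM in saline than in saline nuclei of any other class. These saline values rest on 24, 8, 50, 7, 5 and 4 UMIs, in that order, of 83984 UMIs. How many of all genes were highest there was not counted. Parp14 was at 286 CPM in saline and 260 and 392 CPM with IFN-γ, Parp12 at 95.3, 133 and 112 CPM, and Parp8 at 595, 378 and 422 CPM. Parp9 was at 83.4 CPM in saline and 184 and 194 CPM with IFN-γ, and Dtx3l at 59.5, 97.0 and 108 CPM. Parp10 was at 47.6 CPM in saline, from 4 UMIs, and 35.7 and 47.3 CPM with IFN-γ, and Parp3 at 11.9 CPM, from 1 UMI, and 15.3 and 21.5 CPM. Parp11 was at 23.8 CPM in saline, from 2 UMIs, and 199 and 198 CPM with IFN-γ, ratios of 8.36 (2.16 to 71.5) and 8.31 (2.17 to 70.7). Its log2 fold change of 3.0 ± 0.76 (adjusted p = 0.00975, 2 of 2 mice) was not called, as the ratios of the mice with the prior count of 0.5 were 2.76 and 2.75 on the log2 scale. Without it both ratios are above the limit. Of 7 genes tested 0 were called by edgeR or DESeq2, against 0.744% of genes, with 1270 genes at an unadjusted p under 0.05. Differences between the classes were not tested.

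Of 9 other PARP family genes, 3 were called higher in some comparison of wells and 0 lower. Zc3hav1, the zinc finger antiviral protein that lacks catalytic activity, rose in NeuN− wells by 2.77 (adjusted p = 4.91e-08, 6 of 6 wells) at 6 h and by 2.68 (adjusted p = 1.66e-07, 6 of 6 wells) at 24 h. In NeuN+ wells Zc3hav1 rose by 1.67 (adjusted p = 0.000287, 6 of 6 wells) and 2.04 (adjusted p = 8.87e-06, 6 of 6 wells). Parp4, the PARP of vault particles, rose in NeuN+ wells by 1.67 at 6 h (adjusted p = 1.59e-05, 6 of 6 wells) and 1.33 at 24 h (adjusted p = 0.000634, 6 of 6 wells). Tiparp rose by 1.65 in NeuN− wells at 6 h (adjusted p = 0.00326), with 3 of 6 IFN-γ wells above all saline wells, and DESeq2 did not call it. Parp1, Parp2, Parp6, Parp16, Tnks and Tnks2 were not called in any comparison of IFN-γ with saline. Of the 7 genes that remove or read ADP-ribose 4 were tested in wells and 0 called by edgeR or DESeq2, and 3 of them (Macrod1, Macrod2 and Parg) had an unadjusted p under 0.05 by edgeR in some comparison. Of the 4 other Deltex ligase genes 3 were tested and 0 called by either tool, and 2 (Dtx1 and Dtx3) had such a p. In nuclei 0 genes of these 3 lists were called by either tool, and 2 other PARP genes, 4 genes that remove or read ADP-ribose and 1 Deltex gene had an unadjusted p under 0.05 by edgeR in some class.

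NAD+ is the substrate of the PARPs that are enzymes, and of the 14 genes of its synthesis and use 7 were tested and 1 called. Nampt, the rate-limiting enzyme of NAD+ salvage, rose by 2.53 ± 0.28 in NeuN− wells at 6 h (adjusted p = 4.36e-09, 6 of 6 wells). In NeuN+ wells its log2 fold change of 0.79 at 6 h was under the limit, and the response was lower there than in NeuN− wells by −1.81 ± 0.34 (adjusted p = 0.000141). Of 4 genes of interferon signalling (Stat2, Irf1, Irf9 and Socs1), 3 were tested and all 3 were called higher. Irf1 rose by 6.88 in NeuN− and 6.24 in NeuN+ wells at 6 h, and Stat2 was still called in NeuN− wells at 48 h (2.40, 6 of 6 wells above saline) and at 72 h (1.55, 5 of 6 wells), where DESeq2 did not call it. Stat2 and Irf9 are parts of the transcription factor of type I interferon signalling.

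Promoter windows of 300 bases were searched on both strands for TTCNNNGAA, the gamma-activated site, and for GAAANNGAA, the core of the element bound by interferon regulatory factors. The table of RefSeq promoters (GRCm38.p6) held 6 windows for 5 of the 8 genes, and Parp9, Parp10 and Parp14 had no entry. Among all 32851 windows, 8.30% held the first motif, 8.56% the second and 1.07% both. Of the 6 windows 1 held both motifs, the first of the Parp11 windows, at chr6:127446590-127446889 on the plus strand. TTCTTGGAA starts 37 bases before the transcription start, and it overlaps with TTCGATTTC, the second motif on the opposite strand, 43 bases before. The windows of Dtx3l (chr16:35938978-35939277, minus strand), Parp3, Parp8, Parp12 and the second of Parp11 held neither. The Parp11 window is shown because it alone holds both motifs, in capitals, and the Dtx3l window because it covers the annotated start of Dtx3l, which lies inside Parp9.
Parp11: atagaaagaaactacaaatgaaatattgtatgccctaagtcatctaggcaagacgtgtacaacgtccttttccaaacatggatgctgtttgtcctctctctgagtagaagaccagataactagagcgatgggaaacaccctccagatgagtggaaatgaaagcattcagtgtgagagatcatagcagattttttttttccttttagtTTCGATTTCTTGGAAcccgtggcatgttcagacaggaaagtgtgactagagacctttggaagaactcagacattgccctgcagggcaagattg
Dtx3l: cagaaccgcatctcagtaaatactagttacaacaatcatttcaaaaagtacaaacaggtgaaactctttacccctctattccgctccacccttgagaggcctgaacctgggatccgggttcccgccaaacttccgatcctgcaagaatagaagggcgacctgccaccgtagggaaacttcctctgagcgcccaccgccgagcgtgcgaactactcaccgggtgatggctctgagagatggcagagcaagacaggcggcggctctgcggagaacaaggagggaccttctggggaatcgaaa
These matches describe the letters in the windows only.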

How the data were processed

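Plate wells and single nuclei were measured as UMI counts per gene, which the authors deposited after alignment with STAR to GRCm38 with Gencode annotation, trimming of poly(A) sequence and collapse of near-identical UMIs. The deposited single-nucleus counts include introns and hold nuclei left after the authors removed doublets, rare populations and ambiguous neuronal clusters. Wells were grouped by fraction, treatment and time. Comparisons were fitted over all genes with edgeR 4.0.16 quasi-likelihood tests (R 4.3.3, filterByExpr, TMM, Benjamini-Hochberg adjustment over all genes tested), and calls required an adjusted p under 0.01 together with a log2 fold change larger than 1 in size, or than 0.5 between fractions in saline. DESeq2 1.42.0 was run beside it. Nuclei were clustered in Python 3.11.15 (2000 variable genes, 30 principal components, 15 neighbours, leidenalg 0.10.2 at resolution 1) and named from markers. In nuclei, UMIs were summed per mouse and class, genes needed 10 UMIs in a class, and calls required a log2 fold change larger than 3, overall and in both mice (prior count 0.5). The depth of each sample and what 1 count is worth stand in the results, and intervals and floors (95%, 3 counts) cover counting error only. Alternatives were the normalization, tool, filter, saline wells, joint fit, sex covariate, depth, clustering and leaving out each well. Every member was named, of the other lists each gene called in a bulk comparison of IFN-γ with saline apart from some list genes that are not reported here, and for each member the 3 genes of highest r. The members and lists were chosen with earlier results of these data known. The tests were tried on simulated data, and no value from those trials is given here. No paired analysis was possible because the labels carry no shared replicate numbers between fractions or treatments.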

Additional observations from a re-analysis of the deposited data

Results flagged for a closer look

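Among 126 groups of wells examined, 1 gene and 1 group at a time, 15 held a well far from the others relative to the range of its group. Chance flags about 1 in 20 groups, and the rate for counts as low as these was not measured: in 5 of the 15 all other wells were at 0. Most of these wells were NeuN− wells. Parp3 had its highest saline well at 25.3 CPM (NeuN−, 48 h, 3 counts), its lowest IFN-γ well at 28.9 CPM (NeuN−, 48 h, 3 counts) and its highest NeuN+ saline well at 2.05 CPM (24 h, 2 counts). Parp10 had single saline NeuN− wells at 22.1 CPM (24 h, 2 counts) and 8.42 CPM (48 h, 1 count), and Dtx3l at 12.1 CPM (24 h, 1 count) and 10.4 CPM (48 h, 2 counts). Parp12 (72.5 CPM) and Parp14 (42.8 CPM) each had 1 saline NeuN− well above the others at 6 h. Parp9 had 1 high NeuN− IFN-γ well at 6 h (270 CPM) and 1 low NeuN+ saline well at 24 h (0.600 CPM, 1 count). Parp8 had 1 low NeuN− IFN-γ well at 24 h (130 CPM) and 1 high NeuN+ IFN-γ well at 72 h (289 CPM). Parp11 had 1 low NeuN+ IFN-γ well at 6 h (35.5 CPM) and Parp14 at 24 h (25.0 CPM).

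The response was called as differing between groups in 5 tests on the log2 scale: Parp8 between NeuN+ and NeuN− wells at 6 h (−1.06), Parp11 between NeuN+ and NeuN− wells at 24 h (−1.57), and Parp11 (−1.83), Parp12 (−3.12) and Parp10 (−3.66) between 72 and 24 h in NeuN+ wells. The calls of Parp8, of Parp11 between fractions and of Parp10 were lost in some other settings and without some single wells, as given above.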

How the results depend on the processing

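Over all alternatives 687 of 721 log2 fold changes of the members kept their direction and side of the threshold, or their value within the spread, 13 lost a call, 6 gained one, 15 moved and 0 changed sign. Over fits that left out 1 well or mouse, 2460 of 2554 did so, 33 lost a call, 3 gained one, 58 moved and 0 changed sign. With no filter on low counts, and so more members tested, the members called higher in NeuN− wells went from 2 to 7 at 24 h, from 0 to 2 at 48 h and from 0 to 1 at 72 h, those lower in NeuN+ than NeuN− IFN-γ wells at 72 h from 3 to 5, and those in saline from 0 to 1 higher and 5 lower, while the interaction at 24 h went from 1 to 0. In 1 fit of all 84 wells the NeuN− counts were also 7, 2 and 1. With NeuN+ counts thinned, which leaves fewer genes to test, the members called in NeuN+ wells went from 6 to 0 at 6 and 24 h (1 tested), the interactions at 6 and 24 h from 1 to 0, and the level differences in IFN-γ wells from 5 to 3 at 24 h, from 4 to 0 at 48 h (1 tested) and from 3 to 0 at 72 h (1 tested), the last 3 by an alternative added after seeing the data. RLE size factors and DESeq2 each took both interactions from 1 to 0 and the saline count of higher members from 0 to 1, and the cause was not tested. In nuclei DESeq2 called 2 members in oligodendrocytes in place of 5 (the cause was not tested), and a limit of 1 called 6 in place of 5 in oligodendrocytes and 1 in place of 0 in the small cluster led by Inpp5d. Other moves of these counts were as follows. No filter and 1 fit of all wells each gave 8 in place of 6 in NeuN− wells at 6 h and 7 in place of 6 in NeuN+ wells at 6 and 24 h. Saline wells of all times gave 4 in place of 6 (5 tested) and 3 in place of 2 in NeuN− wells at 6 and 24 h. No filter gave 6 in place of 5 and of 4 in IFN-γ wells between fractions at 24 and 48 h, and thinned counts 5 in place of 6 at 6 h. Between 72 and 24 h in NeuN+ wells no filter gave 2 and DESeq2 4 in place of 3.

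Leaving out 1 well, the count of members called was 2 to 4 in NeuN− wells at 24 h (4 without saline replicate 1, 3, 4 or 6 or IFN-γ replicate 3), 0 to 1 for the interaction at 6 h and 0 to 1 for the interaction at 24 h. Leaving out an IFN-γ mouse gave values with no test. The covariate for sex was not run at 6 h, where the ratio does not overlap between the treatments. With no filter the median of all genes in NeuN− wells at 24 h shifted to 0.17, and those genes with few counts are why the filter was used.

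Counts over all genes moved by more than 1.5 times as follows. With no filter they went from 275 to 639 (NeuN− 24 h), 33 to 56 (NeuN− 48 h), 163 to 297 (NeuN+ 24 h), 17 to 40 (NeuN+ 48 h), 2602 to 4220 and 2408 to 3669 (IFN-γ wells between fractions, 6 and 48 h), 8 to 21 and 26 to 40 (interaction, 48 and 72 h), 2725 to 7030 (saline between fractions) and 66 to 111 (24 against 6 h, NeuN+). In 1 fit they went from 312 to 478, 275 to 700 and 33 to 55 (NeuN− 6, 24 and 48 h), 17 to 29 (NeuN+ 48 h) and 8 to 16 (interaction 48 h). With saline of all times they went from 33 to 21 and 33 to 20 (NeuN− 48 and 72 h) and 17 to 11 (NeuN+ 48 h). With thinned counts they went from 124 to 13, 163 to 16, 17 to 1 and 72 to 7 (NeuN+ by time), 151 to 59, 322 to 167, 8 to 0 and 26 to 6 (interaction by time), 2602 to 1668, 2601 to 1288, 2408 to 1455 and 2862 to 1505 (IFN-γ wells by time) and 2725 to 1633 (saline). DESeq2 gave 14 in place of 8 (interaction 48 h), 25 in place of 76 (oligodendrocytes), 2 in place of 11 (astrocytes), 6 in place of 2 (GABA) and 3 in place of 63 (the Inpp5d cluster). In nuclei, resolutions 0.5 and 2 gave 17 and 15 in place of 6 (VGLUT2) and 1 and 0 in place of 2 (GABA), and 0.5 gave 11 in place of 7 (dopaminergic). Total counts gave 1 in place of 2 (GABA) and 32 in place of 63 (the Inpp5d cluster), genes of at least 1 UMI gave 22, 13 and 12 in place of 6, 2 and 7 (VGLUT2, GABA, dopaminergic), and a limit of 1 gave 134, 12 and 116 in place of 76, 7 and 63 (oligodendrocytes, dopaminergic, the Inpp5d cluster). The interaction at 48 h went from 8 to 4 without NeuN− saline replicate 3 or NeuN+ IFN-γ replicate 2 and to 5 without NeuN+ saline replicate 4.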
